A study of Mus musculus with 2 samples.

Results

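The genes of the core microRNA pathway were read in mouse embryonic fibroblasts, connective tissue cells grown from embryos. They were 10 genes chosen by name from the 24015 genes of the expression table. Of these, 6 act in processing (Drosha, Dgcr8, Xpo5, Dicer1, Tarbp2 and Prkra) and 4 encode the Argonautes (Ago1, Ago2, Ago3 and Ago4). All 10 were found under these symbols and all 10 passed the minimum of 1 RPKM in a library that 13867 genes passed. Cells of genotype Adar2+/+ (WT-labelled) and of genotype Adar2-/- (KO-labelled) were grown in DMEM with serum and antibiotics, and 1 poly(A)+ library was sequenced from each, so the differences below have no replicate check. The labels name TruSeq or Nextera library kits without saying which was used for which library. They do not give the embryos' age, the strain, the deleted part of Adar2, or whether a culture came from 1 embryo or was a line. Adar2 (listed as Adarb1) and ADAR1 (Adar) deaminate adenosine to inosine in double-stranded RNA.

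A microRNA begins as a hairpin in a longer transcript. In the nucleus the Microprocessor, made of the nuclease Drosha and the RNA-binding protein DGCR8, cuts the hairpin out, and Exportin-5 (Xpo5) carries it to the cytoplasm. There Dicer, helped by the double-stranded RNA-binding proteins TRBP (Tarbp2) and PACT (Prkra), cuts it to a short duplex, and 1 strand is loaded into an Argonaute to silence matching mRNAs. ADAR enzymes bind the same kind of hairpins, so both pathways can meet on 1 substrate. A poly(A)+ library measures the mRNAs of these proteins and the long host transcripts, not mature microRNAs.

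The WT-labelled and KO-labelled values rested on 9446911 and 9546998 reads, which were recovered from the table and allow counting intervals (95%, exact, counting error only). Adarb1 was higher, not lower, in KO-labelled cells (18.4 and 25.8 RPKM, 1155 and 1633 reads), and Adar was lower there (28.0 and 18.7 RPKM). The table sums each gene over its whole length and so does not test for a deletion of 1 part, and every direction below rests on the labels. All 12 fibroblast markers had at least 9.40 RPKM in both libraries, but the cultures were not alike in their markers. Thy1 was 7.68-fold higher in KO-labelled cells (9.40 and 72.1 RPKM), Dcn (29.7 and 12.3 RPKM) and Lum (19.1 and 11.3 RPKM) were lower, and Col1a1 had 50.0 and 57.1 RPKM. The stem and progenitor cell factor Sox2 (24.2 and 0.171 RPKM) and the cartilage collagen gene Col2a1 (48.0 and 0.571 RPKM) were far lower in KO-labelled cells, the pluripotency factor Nanog was higher (0.850 and 3.08 RPKM), and the cartilage factor Sox9 had 12.8 and 14.5 RPKM. The part of these differences in the results below was not tested. The muscle factors Myod1 and Myog and the neuronal genes Snap25 and Rbfox3 were listed at 0 in both, a value that need not mean no expression, since Tsnax, a broadly expressed gene, was also listed at 0 in both. The other muscle gene, Des, had 0.760 and 0.342 RPKM and the other neuronal gene, Tubb3, 20.1 and 15.7 RPKM. The libraries differed in other ways as well. Each of 10 interferon-induced genes was lower by 2-fold or more in KO-labelled cells, with a summed level of 309.6 and 37.5 RPKM. Of all 13867 genes compared, 7.46% were lower by that margin. The 10 were chosen with earlier results of these data known, so they are not a neutral sample. Among the 10 were Ifi44 (42.5 and 0.252 RPKM), Oasl2 (33.7 and 0.301 RPKM) and Ddx58 (38.2 and 17.6 RPKM). Fewer cells of a type and less RNA per cell cannot be told apart in such bulk samples.

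All but 1 of the genes differed by less than 1.5-fold between the libraries. On the scale of RPKM + 1, 9 of the 10 genes lay within 2-fold, 0 were higher by 2-fold or more and 1, Ago4, was lower by 2-fold or more in KO-labelled cells. Of all 13867 genes compared, 4.42% were higher and 7.46% lower by that margin, so the share among these genes is near that of the table as a whole. The median log2 ratio (KO-labelled over WT-labelled) of the 10 genes was 0.07, beside 0.01 over all genes compared, and 7 of the 10 were higher in direction, beside 50.8% of all genes. At the lesser fold of 1.5, 0 genes were higher (8.99% of all genes, and 6.58% of genes with a larger value of at least 5 RPKM, as 9 of the members had) and Ago4 was again the 1 gene lower (12% of all genes). By counting error alone, the interval of the log2 reads ratio lay above 0 for Drosha, Tarbp2, Ago2 and Prkra (28% of all genes did so) and below 0 for Ago4 (27.3%). These shares of the table show that an interval leaving out 0 was common between these 2 libraries.

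**Figure D1:**
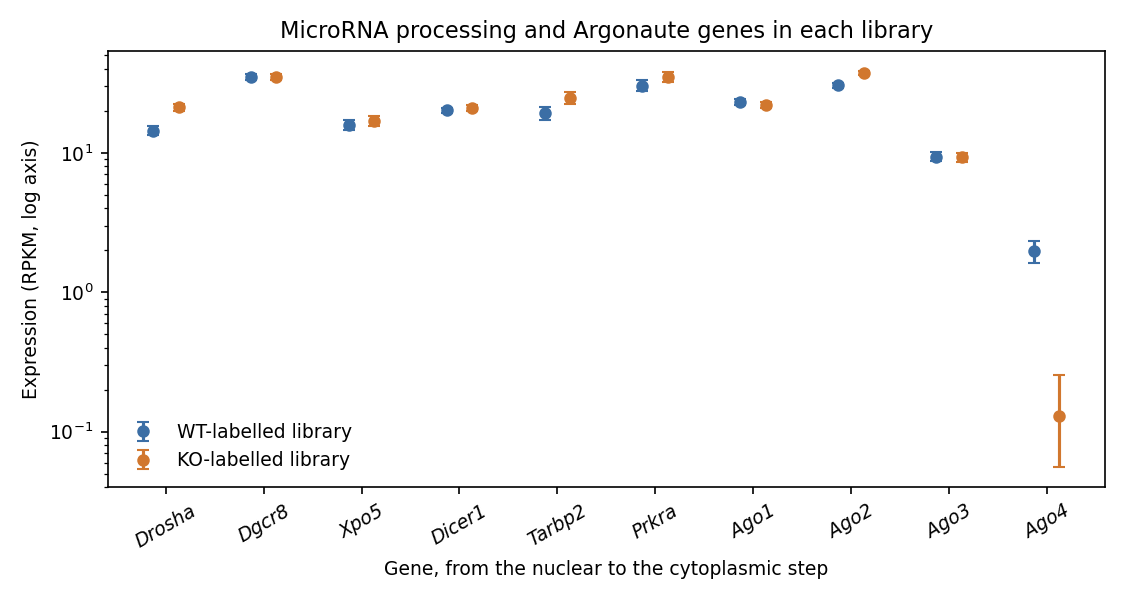
Expression of the 10 genes in RPKM (log axis) in WT-labelled cells (blue) and KO-labelled cells (orange), with exact Poisson 95% intervals as bars. The pairs of points lie close together for 9 genes, and Ago4 stands at 1.96 and 0.129 RPKM.

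Drosha, the nuclease that makes the first cut, was the member with the largest ratio toward the KO-labelled library. It had 14.5 RPKM (625 reads) in WT-labelled cells and 21.2 RPKM (924 reads) in KO-labelled cells, a ratio of 1.46 (log2 reads ratio 0.55, interval 0.40 to 0.70). In the authors' deposited table its GFOLD value, a log2 fold change shrunken toward 0 where reads are few, was 0.43. Of all genes compared, 10.4% had a larger ratio. Dgcr8, its obligate partner, stood at 34.9 RPKM (1393 reads) and 35.2 RPKM (1420 reads), within counting error (interval -0.10 to 0.12). The level of Dgcr8 was therefore 2.41 times that of Drosha in WT-labelled cells and 1.66 times in KO-labelled cells. Both values are per length, so the ratio compares transcript levels and not proteins.

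The Dgcr8 mRNA itself carries a microRNA hairpin, and the Microprocessor is known to cut its own partner's transcript at such hairpins. Mir1306 lies inside the coding sequence of a Dgcr8 exon on the same strand (GENCODE M21, GRCm38). Its mature arms, at 16:18284288-18284310 (5p) and 16:18284248-18284268 (3p) on the minus strand, are shown because they are the microRNA written into a member's coding sequence (RefSeq, GRCm38.p6, bases 2 to 8, the seed, in capitals):
mmu-miR-1306-5p: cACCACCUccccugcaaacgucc
mmu-miR-1306-3p: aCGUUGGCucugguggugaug
The row of Mir1306, 79 bases long, had 27 reads (36.2 RPKM) in WT-labelled cells and 36 reads (47.7 RPKM) in KO-labelled cells, and the interval of the log2 reads ratio was -0.36 to 1.18. Dgcr8 as a whole had 34.9 and 35.2 RPKM, and reads of the mRNA and of the hairpin cannot be told apart. Mir693, in an intron of Xpo5, had 0 and 1 reads.

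Xpo5, which exports the hairpin together with the GTPase Ran, had 15.8 RPKM (555 reads) and 16.9 RPKM (599 reads). Its interval of -0.07 to 0.26 included 0. Ran was at 54.9 and 50.1 RPKM.

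Dicer1, whose product makes the second cut, stood at 20.2 RPKM (1879 reads) in WT-labelled cells and 20.9 RPKM (1970 reads) in KO-labelled cells. With these many reads the interval was narrow, -0.04 to 0.14. Its cofactor gene Tarbp2 had 19.2 RPKM (325 reads) and 24.8 RPKM (424 reads), a ratio of 1.29 (interval 0.16 to 0.58). The paralogous cofactor gene Prkra, whose product also activates the kinase PKR, had 30.4 RPKM (446 reads) and 35.2 RPKM (522 reads), a ratio of 1.16 (interval 0.03 to 0.40). Both cofactor genes were thus higher in KO-labelled cells beyond counting error, and Dicer1 was not. The intervals of Prkra and Dicer1 overlapped, so a difference between these ratios is not shown. Relative to Dicer1, the level of Tarbp2 was 0.952 and 1.18 and that of Prkra 1.505 and 1.68. The kinase gene Eif2ak2 (PKR), which TRBP and PACT both contact and which is itself interferon-induced, went the other way, at 53.1 and 33.8 RPKM. It was picked with its values seen, and 27.3% of all genes were lower beyond counting error.

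Among the Argonautes, Ago2 was the most abundant. It encodes the member that cleaves targets and is known to be essential in the mouse, and had 30.6 RPKM (2324 reads) and 37.6 RPKM (2880 reads), a ratio of 1.23 (interval 0.21 to 0.37). Ago1 had 23.1 RPKM (1540 reads) and 22.2 RPKM (1495 reads, interval -0.16 to 0.05). Ago3 had 9.39 and 9.27 RPKM. Its read numbers have more than 1 solution, and the smaller, 677 and 676 reads, gives an interval of -0.17 to 0.14. Ago1 and Ago3 therefore showed no difference beyond counting error between the libraries.

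Ago4, whose product binds microRNAs but is not known for target cleavage, was the least abundant member in both libraries. It had 1.96 RPKM (121 reads) in WT-labelled cells and 0.129 RPKM (8 reads) in KO-labelled cells, 15.3-fold lower there. The log2 reads ratio was -3.93 with an interval of -5.18 to -2.91. On the scale of RPKM + 1, which understates differences of low genes, it was 2.63-fold lower (log2 ratio -1.39), and 634 of the 13867 genes compared (4.57%) had a lower ratio. In the authors' deposited table its GFOLD value was -2.45. Of the 2145 genes whose larger value was 1 to under 5 RPKM, 17.5% were lower by 2-fold or more on the RPKM + 1 scale. Some markers of other cell types at like levels were also lower there, as the endothelial gene Tek (2.39 and 0.134 RPKM, 106 and 6 reads). Tek was the 1 gene compared of the endothelial list of 4, which summed to 3.998 and 0.409 RPKM. Kdr (50 and 8 reads), Pecam1 (15 and 3 reads) and Cdh5 (6 and 1 reads) were under 1 RPKM in both libraries. All were lower in direction, but the interval of Cdh5 (-8.12 to 0.44) included 0. In the epithelial list of 5 genes, with summed levels of 2.036 and 1.45 RPKM, Cdh1 was lower (1.80 and 0.0712 RPKM) and Krt8 higher (0.0586 and 1.04 RPKM), while Krt5 was listed at 0 in WT-labelled cells and Epcam and Krt18 were listed at 0 in KO-labelled cells. The blood and macrophage list of 5 genes summed to 12.9 and 11.1 RPKM, and its genes went both ways. Its most abundant genes were Cd68, higher in KO-labelled cells (5.15 and 7.40 RPKM, 62 and 90 reads, interval 0.04 to 1.01), and Lyz2, lower there (5.91 and 3.67 RPKM, interval -1.32 to -0.07). Csf1r had 1.75 and 0.0811 RPKM, Emr1 was listed at 0 in both libraries and Ptprc at 0 in KO-labelled cells. Their part in the Ago4 difference, and that of the lower interferon-induced genes, was not tested.

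**Figure D2:**
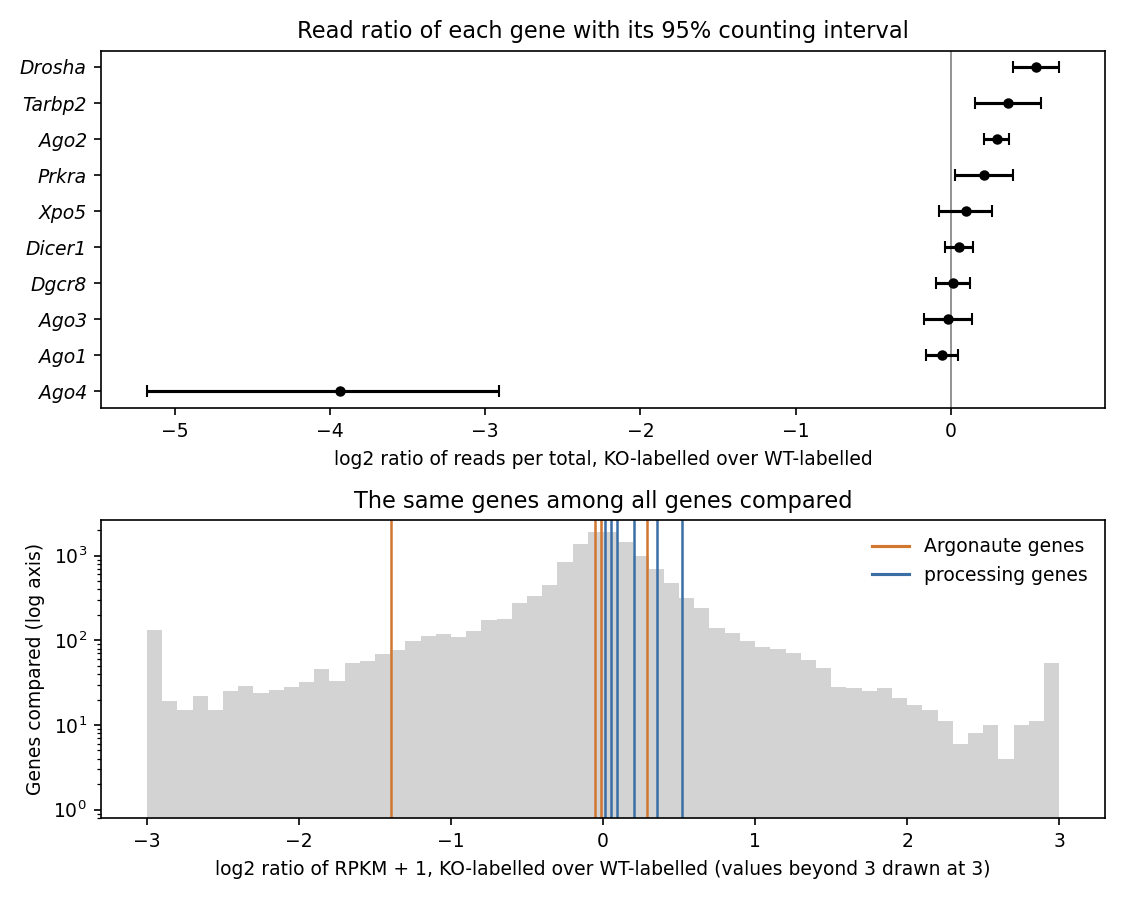
Top, log2 ratio of reads per total (KO-labelled over WT-labelled) of each gene with its exact 95% counting interval, and bottom, the log2 ratio of RPKM + 1 of the same genes (lines) within the histogram of 13867 genes compared (number of genes on a log axis, ratios beyond 3 drawn at 3; orange, Argonaute genes, blue, processing genes). Ago4 stands at -3.93 in the upper panel, the other genes between -0.06 and 0.55.

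Ago4 made up little of the Argonaute total in either library. The summed level of the 4 Argonaute genes was 65.1 RPKM in WT-labelled cells and 69.1 RPKM in KO-labelled cells, a ratio of 1.06. In the WT-labelled library Ago2 made up 47.1% of that sum, Ago1 35.5%, Ago3 14.4% and Ago4 3.02%. In the KO-labelled library the shares were 54.3%, 32.1%, 13.4% and 0.186%. The order Ago2, Ago1, Ago3, Ago4 held in both libraries, with intervals that did not overlap. The level of Ago2 was 1.33 times that of Ago1 in WT-labelled cells and 1.69 times in KO-labelled cells.

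**Figure D3:**
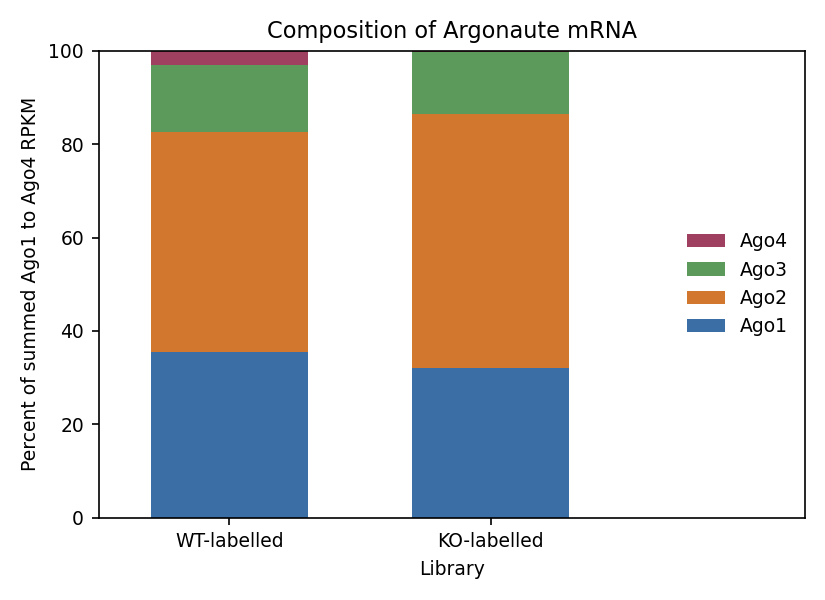
Share of each Argonaute gene in the summed RPKM of Ago1 to Ago4 (percent, stacked bars from 0 to 100) in each library. Ago2 is the largest share in both, 47.1% and 54.3%, and the Ago4 share of 3.02% in WT-labelled cells is too thin to see at 0.186% in KO-labelled cells.

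Ago4 lies next to Ago1 and Ago3, all read from the minus strand of chromosome 4 (RefSeq annotation of GRCm38.p6, used for gene order only since the files are on mm9). The genes follow each other as Adprhl2, Tekt2, Ago3, Ago1, Ago4 and Clspn. Tekt2, a cilium gene beyond Ago3, had 2.76 and 3.72 RPKM (39 and 53 reads, interval -0.20 to 1.06). Clspn, a replication checkpoint gene on the other side of Ago4, had 16.8 and 17.2 RPKM (interval -0.11 to 0.18), and Adprhl2 had 22.8 and 24.0 RPKM (interval -0.16 to 0.31). Of these 6 neighbouring genes, Ago4, around which they were chosen, was the 1 gene whose interval left out 0. Of all genes, 28% had an interval above 0 and 27.3% below.

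**Figure D4:**
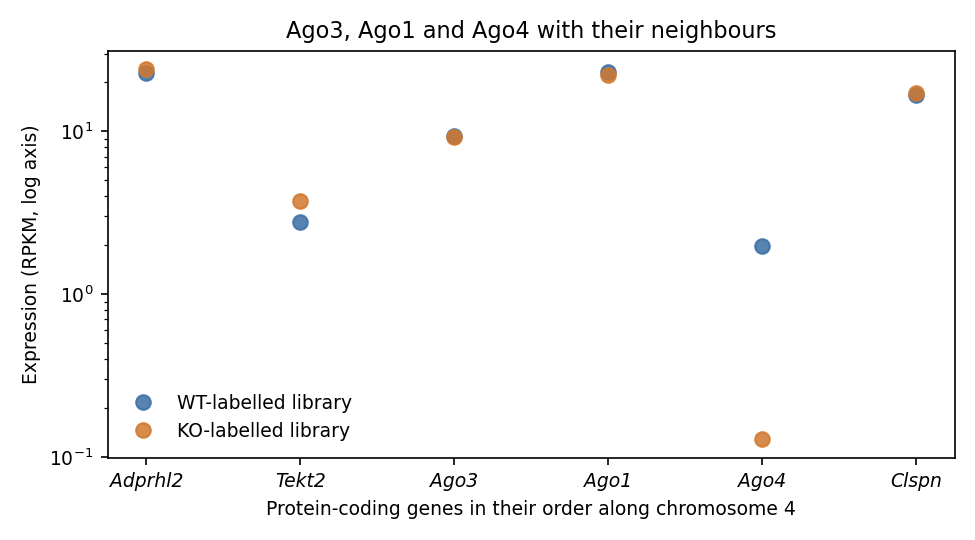
Expression in RPKM (log axis) of 6 protein-coding genes in their order along chromosome 4, in the WT-labelled (blue) and KO-labelled (orange) library. The points of each gene lie close together except at Ago4, with 1.96 and 0.129 RPKM.

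The order of levels was otherwise similar in both libraries. In the WT-labelled library it ran Dgcr8, Ago2, Prkra, Ago1, Dicer1, Tarbp2, Xpo5, Drosha, Ago3, Ago4, where Ago2 and Prkra, Dicer1 and Tarbp2, Tarbp2 and Xpo5, and Xpo5 and Drosha had overlapping intervals. In the KO-labelled library Ago2 (37.6 RPKM), Dgcr8 and Prkra led with overlapping intervals, and the interval of Drosha overlapped those of Ago1 and Dicer1. Levels in the table had a ceiling, with no gene above 1.01 (WT-labelled) or 1.19 (KO-labelled) reads per base, so differences of abundant genes may be understated. The members stood under that ceiling, from 0.0186 (Ago4) to 0.330 (Dgcr8) reads per base in WT-labelled cells, or 1.84% to 32.6% of it. Whether levels in that range are also understated was not tested, and this holds for the ratios between members as well.

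Some members share sequence with other genes, which bears on how well their reads can be assigned. Of stretches of 36 bases in the longest coding transcript (GENCODE M21), Ago4 shared 0.046% with any other gene, Ago3 0.868%, Ago1 2.13% and Ago2 6.01%, while Xpo5 and Prkra shared 0%. Tarbp2 shared 52.4%, all of it with Gm18584, a gene not in the expression table. Dgcr8 shared 27.5%, of which Trmt2a, on the opposite strand, gave 18.4%. Tarbp2 overlaps Map3k12 on the opposite strand, and Map3k12 was also higher in KO-labelled cells (31.7 and 38.2 RPKM, interval 0.17 to 0.36). Whether the counting used strand is not given in the sources used here, so the values of Tarbp2 and Dgcr8 are uncertain in that respect.

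Neither editing list held a site in any of the 10 genes. The WT-labelled list had 654 sites in 204 genes and the KO-labelled list 110 in 69. Of the genes compared, 1.25% held a listed site in WT-labelled cells and 0.425% in KO-labelled cells, so 0 of 10 does not set these genes apart. A listed site has at least 2 edited reads, and a gene with none is not thereby shown to be unedited. Rows of microRNA genes held 0 sites as well.

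Some of the other pathway genes held listed sites. Of 170 genes on the lists below, 5 held a site in WT-labelled cells (1.25% of all genes compared did so) and 2 in KO-labelled cells (0.425%). These counts are small, and whether the shares differ was not tested. In mRNAs of silencing factors, a 3′ UTR site of Limd1, a scaffold that links Argonaute to the cap-binding complex, was edited in 4 of 20 reads (20%, Wilson 95% interval 8.07 to 41.6; mm9 chromosome 9, position 123430036). A 3′ UTR site of the decapping gene Dcp2 had 2 of 25 reads (8%, 2.22 to 24.97; chromosome 18, position 44584357). A 3′ UTR site of Pank3, host of a microRNA, had 2 of 35 reads (5.71%, 1.58 to 18.6; chromosome 11, position 35601413). An intronic site of Srpk1 (chromosome 17, position 28730257) rested on 2 reads. These 4 were listed in WT-labelled cells only. Eri1, a nuclease that trims small RNAs, had 3 sites in its 3′ UTR in KO-labelled cells only, each on 2 reads (chromosome 8, positions 36529158, 36529207 and 36529229). Of the pathway's sites, the 3′ UTR site of Pum2, a repressor that assists microRNA targeting, was the 1 listed in both. It was edited in 31 of 47 reads from WT-labelled cells and 3 of 50 from KO-labelled cells (mm9 chromosome 12, position 8757075). By a two-sided exact test after Fisher the adjusted p was 3.37e-09 (Benjamini-Hochberg). The test covered 55 sites that both lists held with at least 10 reads in each library, and 60% of them passed. That test compares these 2 libraries. Pum2 mRNA was at 33.0 and 33.6 RPKM.

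The wider pathway was mostly within 2-fold as well. On 6 lists of partner genes, 109 of 110 compared genes lay within 2-fold, 1 was higher and 0 lower by that margin, with a median log2 ratio of 0.10. By counting error, 48 of the 104 with known reads were higher and 8 lower in KO-labelled cells. Of all genes compared, 4.42% were higher and 7.46% lower by 2-fold or more. By counting error, 28% of those with known reads were higher and 27.3% lower. Some partner genes stood near the ceiling of levels, where differences may be understated. Hsp90ab1 (107 RPKM in both libraries) had the largest WT-labelled value of all genes compared, and P4hb had 89.9 and 88.9 RPKM.

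Microprocessor cofactors, which help Drosha find or bind hairpins, had a median of 0.10 over 18 genes, and 0 were 2-fold apart. The RNA-binding gene Hnrnpa1 (42.8 and 54.1 RPKM) and Mettl14 (25.2 and 29.8 RPKM), a subunit of the m6A methyltransferase, were highest toward the KO-labelled library. The cap-binding gene Ncbp2 (47.1 and 43.0 RPKM) and the helicase gene Ddx1 (60.3 and 57.6 RPKM) were lowest, both within counting error. Nuclear transport genes had a median of 0.10 over 9 genes, with the tRNA exporter gene Xpot (49.1 and 62.7 RPKM) and the Ran exchange factor gene Rcc1 (39.0 and 46.9 RPKM) at the upper end and Ran and Ranbp1 (74.8 and 73.0 RPKM) at the lower.

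Precursor modifiers and decay factors, which tail, modify or degrade hairpins, held the 1 partner gene past 2-fold. Trim71, a ubiquitin ligase gene known as a let-7 target, had 0.408 RPKM (20 reads) and 5.59 RPKM (277 reads), 13.7-fold higher in KO-labelled cells (interval 3.12 to 4.51). Zcchc11, whose product adds uridines to let-7 precursors, had 6.42 and 12.1 RPKM, and Bcdin3d, which methylates precursor ends, 9.08 and 15.2 RPKM. Dis3l2, the nuclease that degrades uridylated precursors, had 4.54 and 7.10 RPKM. Lin28a, the protein that recruits uridylation to let-7, was listed at 0 in both libraries, and Lin28b had 0 and 7 reads. The lower end was held by the nuclease gene Zc3h12a (44.0 and 38.4 RPKM) and the poly(A) polymerase gene Papd4 (48.6 and 45.4 RPKM). Of 15 compared genes 3 were at least 1.5-fold higher (8.99% of all genes) and 0 lower (12%).

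Chaperones and regulators that load or modify Argonaute had a median of -0.01 over 21 genes. Fkbp5 (24.7 and 34.1 RPKM) and the chaperone gene Hspa4 (55.0 and 60.9 RPKM) were highest, Egfr, a receptor kinase that modifies AGO2 (15.2 and 11.2 RPKM), and Dnajb1 (43.7 and 37.8 RPKM) lowest. Silencing effectors, the GW182 scaffolds with the deadenylation and decapping factors, had a median of 0.12 over 30 genes. Of 29 with known reads, 17 were higher beyond counting error (28% of all genes) and 2 lower (27.3%). The deadenylase gene Pan2 (7.49 and 14.6 RPKM) was the 1 gene at least 1.5-fold higher, followed by Cnot2 (33.5 and 44.4 RPKM). Cnot6l (22.5 and 19.98 RPKM) and the cap-binding repressor gene Eif4e2 (23.1 and 20.6 RPKM) were at the lower end. All 3 GW182 genes, which encode the direct partners of Argonaute, were higher in KO-labelled cells beyond counting error: Tnrc6a (21.8 and 24.5 RPKM), Tnrc6b (15.01 and 19.8 RPKM) and Tnrc6c (13.8 and 17.7 RPKM). They were picked out after their values were seen, and 28% of all genes were higher in that way.

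RNA-binding proteins found with Argonaute had a median of 0.10 over 17 genes, with Igf2bp1 (17.2 and 23.9 RPKM) and Igf2bp3 (23.8 and 32.9 RPKM) highest. The helicase gene Mov10, which is also interferon-induced, was lowest (27.8 and 22.7 RPKM), beside Upf1 (49.4 and 45.7 RPKM). Double-stranded RNA-binding proteins outside the pathway had a median of -0.06. Of 17 compared, 3 were lower (7.46% of all genes) and 0 higher (4.42%) by 2-fold or more in KO-labelled cells. The 3 were the helicase sensor genes Ifih1 (21.1 and 0.418 RPKM), Dhx58 (17.6 and 5.08 RPKM) and Ddx58 (38.2 and 17.6 RPKM), which are interferon-induced. Without them the median of the remaining 14 was 0.00. Stau2 (8.24 and 12.8 RPKM) and Adarb1 were highest, Eif2ak2 (53.1 and 33.8 RPKM) and Adar (28.0 and 18.7 RPKM) lowest. Of the 14, 1 was lower (12% of all genes) and 0 higher (8.99%) by 1.5-fold or more. By counting error, 6 were higher (28% of all genes) and 3 lower (27.3%). Tarbp2, Prkra, Dicer1, Drosha and Dgcr8, which carry double-stranded RNA-binding domains, were not among the lower ones.

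**Figure D5:**
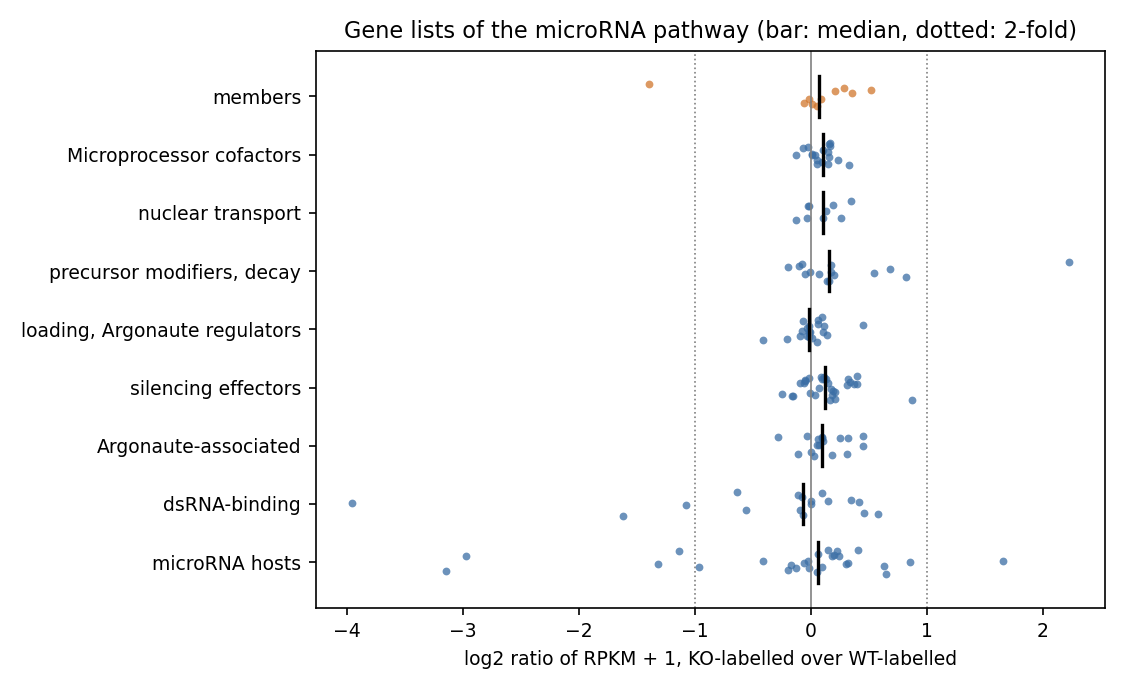
Log2 ratio of RPKM + 1 (KO-labelled over WT-labelled) of each compared gene (points, spread vertically at random) in the list of 10 members (orange) and 8 further lists (blue), with medians as bars and 2-fold as dotted lines. The medians lie between -0.06 and 0.16, and the points beyond 2-fold are Ago4, Trim71, the helicase sensor genes and microRNA host transcripts.

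Host transcripts are the substrates of the pathway. Of 27 compared, Igf2 was higher and 4 were lower by 2-fold or more in KO-labelled cells, with a median of 0.06. Of all genes compared, 4.42% were higher and 7.46% lower by that margin. The mature microRNAs of 4 hosts, picked with their values seen, are printed to show which seeds they carry: H19 and Mest, which had the lowest ratios, Mir17hg, which was higher beyond counting error but by less than 2-fold, and Mirlet7bhg, which was not on the list (RefSeq, GRCm38.p6, seed in capitals). Mir17hg, the host of the miR-17 to miR-92a cluster on chromosome 14 (plus strand, mature arms between positions 115043684 and 115044496), had 5.52 RPKM (122 reads) and 10.8 RPKM (242 reads), a ratio of 1.96 (interval 0.65 to 1.30). Its 6 microRNAs carry 4 different seeds, with 1 shared by miR-17 and miR-20a and 1 by miR-19a and miR-19b:
mmu-miR-17-5p: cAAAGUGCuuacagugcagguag
mmu-miR-20a-5p: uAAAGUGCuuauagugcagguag
mmu-miR-18a-5p: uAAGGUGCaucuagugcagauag
mmu-miR-19a-3p: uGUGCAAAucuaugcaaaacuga
mmu-miR-19b-3p: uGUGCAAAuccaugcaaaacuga
mmu-miR-92a-3p: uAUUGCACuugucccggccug

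The host of let-7b and let-7c-2, Mirlet7bhg, was chosen after its values were seen. It had 1.35 RPKM (19 reads) and 5.70 RPKM (81 reads), 4.22-fold higher in KO-labelled cells (interval 1.34 to 2.88). Its microRNAs, on the plus strand of chromosome 15 (let-7c at 85706616 to 85706637, let-7b at 85707325 to 85707346), share 1 seed:
mmu-let-7b-5p: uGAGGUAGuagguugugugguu
mmu-let-7c-5p: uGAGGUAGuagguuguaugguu
The hairpin rows themselves held 1 and 4 reads (let-7b) and 1 and 2 reads (let-7c-2), too few for a direction. Host level and mature level can differ, and mature let-7 was not measured.

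The 4 hosts lower by 2-fold or more, H19, Mest, Rian and Meg3, are imprinted. H19 had 68.5 RPKM (1693 reads) and 6.85 RPKM (171 reads), 10.0-fold lower in KO-labelled cells (interval -3.56 to -3.10), and its exonic hairpin row Mir675 had 48 reads and 1 read. Mest, host of miR-335, had 48.2 and 5.28 RPKM, 9.13-fold lower. Rian (17.9 and 6.56 RPKM) and Meg3 (4.61 and 1.55 RPKM), of 1 imprinted cluster on chromosome 12, were lower as well, while Dlk1 of the same cluster was higher (2.62 and 4.59 RPKM, 119 and 211 reads, interval 0.48 to 1.15). Igf2, next to H19, was higher (0.875 and 4.92 RPKM), as was Ftx, a host on the X chromosome (4.80 and 8.08 RPKM). The microRNAs of H19, on the minus strand of chromosome 7 (142577078 to 142577133), and of Mest, on the plus strand of chromosome 6 (30741314 to 30741336), have seeds not found in the other clusters printed here:
mmu-miR-675-5p: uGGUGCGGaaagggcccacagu
mmu-miR-675-3p: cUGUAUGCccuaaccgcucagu
mmu-miR-335-5p: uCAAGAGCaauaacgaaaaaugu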

How the data were processed

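The expression values are RPKM deposited by the authors, 1 column per library, in a table laid out, per the file headers, like GFOLD output. It also holds the authors' log2 fold change and GFOLD value. An empirical FDR, a p-value-like column deposited by the authors, was 1 throughout and was left out. The editing files deposited by the authors give counts of reads and of edited reads per site and the editing level as a fraction. STAR 2.4.0d, SAMtools and mm9 appear in the submitters' processing notes without their steps. The sources used here do not give annotation, strand use or site caller.

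Whole reads were recovered from the 6 printed digits of RPKM and log2 fold change: reads of genes at 0 in 1 library came out whole (100%, tolerance 0.1 reads), and 17211 of 17981 genes above 0 (95.7%) had a single solution. The recovery was tested on simulated data. Log2 ratios are of RPKM + 1 for genes whose larger value was at least 1 RPKM; read ratios carry exact (Clopper-Pearson) 95% intervals, levels exact Poisson intervals, and editing levels Wilson intervals. All cover counting error only. With 1 library per genotype no test across genes was run. Named genes are all 10 members, Adarb1, Adar, and of each pathway, host and germ line list the 2 highest and 2 lowest with at least 5 RPKM in a library and those 2-fold apart. Bcdin3d, Dis3l2, Lin28a, Lin28b, Eif2ak2, the GW182 genes, Dlk1, Mirg, Mirlet7bhg, and the cell type and interferon markers were named with their values seen. The members and lists were chosen with earlier results of these data known. Python 3.11.15, SciPy 1.17.1 and statsmodels 0.14.6 were used.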

Additional observations from a re-analysis of the deposited data

How the results depend on the processing

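Pseudocounts of 0.1 and 0.5 RPKM, other filters on low values, centring on the median of all genes, and the authors' own fold changes were tried, and 240 recomputed values stayed within counting error, within 0.1 (medians) or within 1.5 times (counts), while 9 did not. Ago4 remained lower throughout, but the size of its log2 ratio depended on the scale, with -1.39 at a pseudocount of 1, -3.18 at 0.1 and -3.72 as the log2 fold change in the authors' deposited table. With a minimum of 5 RPKM Ago4 was not compared and the members at least 2-fold or 1.5-fold lower were 0. Under the same minimum, microRNA hosts at least 2-fold higher were 0, those at least 1.5-fold higher 2 (4 before) and those at least 1.5-fold lower 3 (5 before), since fewer genes were tested. A pseudocount of 0.1 gave 1 double-stranded RNA-binding gene at least 1.5-fold higher. With at least 10 reads required, pathway sites in the KO-labelled list were 1 in place of 4. Drosha ranged from 0.43 to 0.60 and Ago2 from 0.25 to 0.35. The sign of Ago3, within counting error, varied with the scale, from -0.02 to 0.03. The larger read solution of Ago3, added after seeing the data, narrowed its interval to -0.13 to 0.09. No paired analysis was possible because each genotype had 1 library, and for the same reason no library could be left out. Depth limits Ago4 in the KO-labelled library, with 8 reads, and the hairpin rows.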

Other observations

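Piwi-class Argonautes, which act with piRNAs in the germ line, had few or no reads in the table. Piwil1 was listed at 0 in both libraries, Piwil4 had 2 and 3 reads, and Piwil2 had 19 and 30 reads (0.409 and 0.640 RPKM). The germ cell helicase gene Ddx4 had 78 reads (2.90 RPKM) in the WT-labelled library and 1 read in the KO-labelled library, and Dazl had 8 and 0 reads.

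The table also lists 1085 rows of microRNA genes, of which 729 were at 0 in both libraries and 341 were compared. The rows with the largest summed value were Mir682 (104.8 and 103.7 RPKM), Mir5114 (85.03 and 84.1 RPKM), Mir686 (83.5 and 83.6 RPKM), Mir546 (77.9 and 83.1 RPKM) and Mir1982 (74.4 and 86.3 RPKM). Among the 301 compared rows with known reads, the interval of the log2 reads ratio lay above 0 for 4 (28% of all genes) and below 0 for 5 (27.3%). The 4 were Mir196a-1 (0 and 18 reads), Mir1905 (10 and 28 reads), Mir7653 (8 and 22 reads) and Mir6516 (2 and 10 reads). The 5 were Mir675, Mir6381 (48 and 11 reads), Mir1906-1 (18 and 3 reads), Mir1906-2 (17 and 3 reads) and Mir7035 (6 and 0 reads). Both Mir1906 rows may share reads. Most of the compared rows rested on few reads, with a median of 5 over both libraries, and a row in a poly(A)+ library reads the host transcript.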
